A study of Rattus norvegicus with 12 samples.

Results

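The genes described here encode proteins that neutrophils store in granules or hold in the cytosol: S100a8, S100a9, Mpo, Prtn3, Camp, Ltf and Lcn2, 7 genes in all, measured in bone RNA of sham operated and ovariectomized (OVX) rats. A gene was taken from the probe sets to which the array's annotation gives its symbol alone. By this rule 4 of the 7 genes were measured, S100a8, S100a9, Camp and Lcn2, each by 1 probe set, among 14217 genes with such a probe set. Mpo, Prtn3 and Ltf were not analysed here, so the planned comparison of the primary granule genes Mpo and Prtn3 with the later genes was not made.

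The study asked whether a blueberry (BB) diet early in life alters the response of bone to ovariectomy. Female Sprague-Dawley rats formed 4 groups of 3 arrays, and every array held a pool of RNA from 2 to 3 rats. Sham rats had a sham operation on a casein control diet. OVX rats were ovariectomized on the same casein diet. LTBB OVX rats were ovariectomized and received 10% freeze-dried BB powder in the diet from postnatal day 20 to the end. STBB OVX rats were ovariectomized and received that BB diet from day 20 to day 34 only, then the casein diet. Surgery was on day 60 and bone was taken on day 81 in all groups. No group was sham operated on a BB diet, so the BB diets can be compared only among ovariectomized rats. The labels give the femur as the source, whereas the study's methods give the right tibia for bone RNA. Whole bone holds marrow, and in such bulk RNA fewer cells of a type and less RNA per cell cannot be told apart.

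Neutrophils mature in marrow and make their granule proteins in waves. Azurophil (primary) granule proteins such as myeloperoxidase come at the promyelocyte stage, and specific (secondary) granule proteins such as cathelicidin and lactoferrin come later, at the myelocyte and metamyelocyte stages. S100A8 and S100A9 pair as calprotectin, a calcium- and zinc-binding complex that is a major part of neutrophil cytosol and, once released, signals through TLR4 and RAGE. Transcription factors of the C/EBP and PU.1 families drive many of these genes.

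The promoters are shown because the measured members were lower together in ovariectomized rats (values follow). They run from 250 bases before to 50 bases after the start site, 5′ to 3′, in the RefSeq table of the rat assembly GRCr8, with matches to a searched motif in capitals. S100a9 is at chr2:178490573-178490872, Camp at chr8:118721949-118722248 and Lcn2 at chr3:36081731-36082030, all on the minus strand. S100a8 had no entry.
S100a9: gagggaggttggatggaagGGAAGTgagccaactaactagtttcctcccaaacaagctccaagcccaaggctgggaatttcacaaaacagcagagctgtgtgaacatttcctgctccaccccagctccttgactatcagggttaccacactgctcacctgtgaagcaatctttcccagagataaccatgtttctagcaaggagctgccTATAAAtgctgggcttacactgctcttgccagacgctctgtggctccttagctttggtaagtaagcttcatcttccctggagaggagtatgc
Camp: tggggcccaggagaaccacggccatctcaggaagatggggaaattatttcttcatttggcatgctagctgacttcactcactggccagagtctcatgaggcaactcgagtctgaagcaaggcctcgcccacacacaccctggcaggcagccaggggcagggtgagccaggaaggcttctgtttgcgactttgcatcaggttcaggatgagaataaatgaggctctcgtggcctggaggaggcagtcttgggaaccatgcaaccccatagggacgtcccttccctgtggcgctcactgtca
Lcn2: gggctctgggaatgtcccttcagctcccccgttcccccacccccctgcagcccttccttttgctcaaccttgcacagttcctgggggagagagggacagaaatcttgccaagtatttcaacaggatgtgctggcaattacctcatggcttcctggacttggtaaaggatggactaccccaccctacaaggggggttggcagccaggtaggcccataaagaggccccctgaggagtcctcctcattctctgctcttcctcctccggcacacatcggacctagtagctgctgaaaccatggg
Both strands were searched for the C/EBP palindrome TTGCGCAA, the shorter C/EBP sites TTGCAAT and TTGCAAC, and the PU.1 cores GAGGAAGT and GGAAGT, the shorter of which lies within the longer. The TATA box TATAAA was added after the sequences had been seen. S100a9 held GGAAGT with its first base at -231 from the start site and TATAAA at -42. GGAAGT occurred in 22.6% and TATAAA in 14.2% of all 33469 promoters of the table. The other searched motifs were in 0.17% (TTGCGCAA), 2.17% (TTGCAAT), 1.99% (TTGCAAC) and 2.42% (GAGGAAGT) of promoters. For Camp and Lcn2 none of the searched letters lay in these windows, which says nothing of the factors themselves.

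All values are log2 values that the authors centred on a median of 0 for each probe set. They give differences between arrays and no expression level, and levels of 2 genes cannot be set against each other. The spread over genes was wider in the sham arrays (SD 0.846 to 0.891) than in the 9 arrays of ovariectomized rats (SD 0.126 to 0.198). Differences were tested with limma over all 14217 genes, with the p-values adjusted by Benjamini-Hochberg and a threshold of 0.05. The labels name the arrays as pools 1 to 3, and p-values measure the spread between these pools. With 3 pools on either side, the smallest p of an exact permutation test is 0.1.

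All 4 measured members were lower in OVX than in sham, both on the control diet. The fall was 12.9-fold for Camp, 6.57-fold for S100a8, 6.55-fold for S100a9 and 5.04-fold for Lcn2. A lower call was common in this comparison: 28.6% of all genes were lower in OVX, and 30.3% were higher. The median difference of the 4 members was -2.71 on the log2 scale, against 0.005 over all genes. Markers of muscle, marrow and bone cells differed too (given below). A difference in the make-up or handling of the sampled bone cannot be told apart from ovariectomy in this design.

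Camp encodes the cathelicidin precursor, an antimicrobial peptide precursor of specific granules. Its centred log2 values were 3.68, 3.52 and 3.24 in the sham pools and -0.30, 0.00 and -0.32 in the OVX pools. In LTBB OVX they were 0.00, -0.36 and -0.28, and those of STBB OVX were 0.04, 0.01 and -0.30. Every sham pool lay above every pool of ovariectomized rats. The log2 difference between OVX and sham was -3.69 (SE 0.14, 95% interval -3.98 to -3.39), with an adjusted p of 2.3e-10 by limma.

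S100a8 encodes the smaller calprotectin subunit. Its centred log2 values were 2.68, 2.22 and 2.41 in sham and -0.50, 0.05 and -0.40 in OVX. They were 0.15, -0.24 and -0.34 in LTBB OVX and 0.00, 0.00 and -0.38 in STBB OVX. Sham pools did not overlap the others. The log2 difference between OVX and sham was -2.72 (SE 0.17, 95% interval -3.09 to -2.34; limma adjusted p = 2.2e-08). S100a9, which encodes the partner subunit, had centred log2 values of 2.60, 2.39 and 2.35 in sham and -0.40, 0.01 and -0.41 in OVX. They were 0.10, -0.30 and -0.42 in LTBB OVX and 0.08, -0.01 and -0.24 in STBB OVX. Its sham pools again stood apart, and its difference was -2.71 (SE 0.15, 95% interval -3.03 to -2.39; limma adjusted p = 5.3e-09).

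Lcn2 encodes lipocalin 2, a specific granule protein that binds bacterial siderophores. Its centred log2 values were 2.68, 2.43 and 1.84 in sham and -0.07, 0.14 and -0.12 in OVX. They were 0.07, -0.12 and -0.38 in LTBB OVX and -0.13, 0.13 and -0.15 in STBB OVX. The sham pools were spread more widely here (SD 0.43) than for Camp (SD 0.22), yet all lay above the other 9 pools. The log2 difference between OVX and sham was -2.33 (SE 0.18, 95% interval -2.73 to -1.94; limma adjusted p = 1.5e-07). Sham and OVX pools did not overlap for any of the 4 members; over all genes 29.7% were lower in OVX without overlap.

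**Figure D1:**
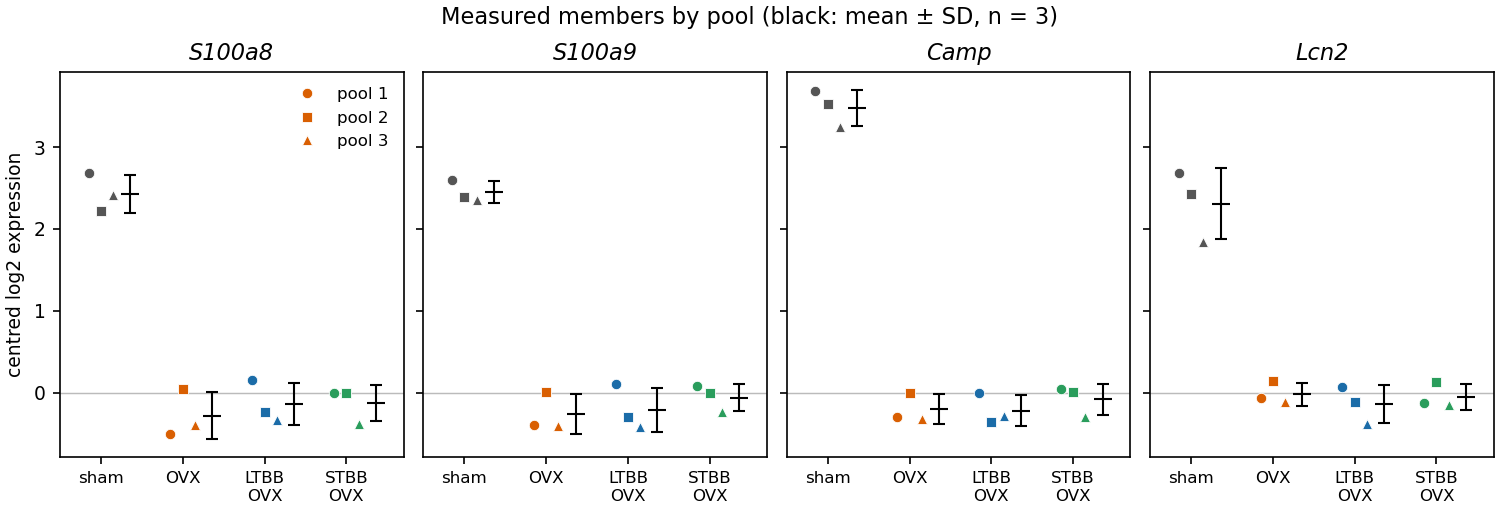
Centred log2 expression (vertical axis) of the 4 measured members in the 3 pools of each group (horizontal axis); symbols are pools and black bars are the mean ± SD. Sham pools lie between 1.84 (Lcn2) and 3.68 (Camp), and all pools of ovariectomized rats between -0.50 and 0.15.

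The sizes held without any 1 pool but were smaller after a second quantile normalization. With each of the 12 pools left out in turn, all 4 members stayed called, with log2 differences between OVX and sham from -3.80 to -3.59 for Camp, -2.88 to -2.60 for S100a8, -2.85 to -2.64 for S100a9 and -2.57 to -2.15 for Lcn2. After the arrays were quantile normalized again, which gives sham and ovariectomized arrays the same spread, the differences were -1.65 for Camp, -1.38 for S100a8, -1.36 for S100a9 and -0.82 for Lcn2. The first 3 still passed, and Lcn2 did not (limma adjusted p = 0.0657). Under that scaling 937 of all 14217 genes (6.59%) were called lower and 1069 were called higher. Most arrays are of ovariectomized rats, so centring each probe set on its median puts a difference from sham mainly into the sham arrays. Giving all arrays the same spread therefore makes such differences smaller by design. A call lost in this way, here or in the lists below, does not show that the arrays were wrongly scaled. Nor does a call that stayed show that they were rightly scaled.

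The size of the fall varied among the members, each read by 1 probe set, and the 95% interval of Camp did not overlap those of the other 3. These intervals come from the same arrays and are no test of a difference between genes. After quantile normalization Camp (-1.65) lay closer to S100a8 (-1.38) and S100a9 (-1.36). Camp minus S100a8 within a pool was 1.05 ± 0.24 (SD, n = 3) in sham and 0.08 ± 0.12 in OVX on the centred log2 scale. Camp minus S100a9 was 1.03 ± 0.12 in sham and 0.06 ± 0.06 in OVX, and Camp minus Lcn2 was 1.17 ± 0.21 and -0.19 ± 0.04. For these 3 differences the sham and OVX pools did not overlap, and the 2-sided exact permutation p was 0.1, the smallest that 3 against 3 pools allow. S100a8 minus S100a9 was -0.02 ± 0.14 in sham and -0.02 ± 0.07 in OVX (exact permutation p = 1). S100a8 minus Lcn2 was 0.12 ± 0.40 in sham and -0.27 ± 0.17 in OVX (exact permutation p = 0.2), and S100a9 minus Lcn2 was 0.13 ± 0.33 and -0.25 ± 0.10 (exact permutation p = 0.1). None of the 6 pairs could pass 0.05 in this design.

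Granule genes outside the members were read from lists of the compartments. Of 10 listed secondary granule genes 6 were measured, Camp and Lcn2 among them, and all 6 were lower in OVX with a median log2 difference of -3.24. Pglyrp1, a bactericidal peptidoglycan recognition protein, had the largest fall of the list (-3.81, SE 0.16). Chi3l1, a chitinase-like lectin, differed by -3.32 (SE 0.15), and Mmp8, neutrophil collagenase, by -3.16 (SE 0.22). Camp and Pglyrp1 kept their calls after quantile normalization, and the other 4 lost them.

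Of 9 listed primary granule genes only the rat neutrophil defensins Np4 and RatNP-3b were measured. Np4 differed by -2.53 (SE 0.16) and RatNP-3b by -2.07 (SE 0.17) on the log2 scale between OVX and sham, and both passed. Both lost the call after quantile normalization. Defensin genes are near-identical copies, so probes may be shared between them. In place of Mpo and Prtn3, and chosen after it was seen that these were not measured, the mean of both defensins was set against the mean of the 4 members in each pool. The difference was -0.61, -0.66 and -0.40 in the sham pools and -0.08, 0.13 and -0.04 in the OVX pools. It was -0.11 ± 0.05 (SD, n = 3) in LTBB OVX and 0.01 ± 0.05 in STBB OVX, and the sham pools lay below all others. A score over genes chosen in this way was not tested. The score restates unequal falls: Camp differed most (-3.69) and RatNP-3b least. Np4 lay between Lcn2 (-2.33) and S100a9 (-2.71).

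Tertiary (gelatinase) granule genes went both ways. Of 7 listed, 5 were measured, 4 were lower and 1 was higher, with a median log2 difference of -0.85. Fcnb, a ficolin, differed by -2.0 (SE 0.25), Adam8, a membrane protease, by -0.97 (SE 0.11), and Itgam, the integrin chain CD11b, by -0.85 (SE 0.15). Mmp9 encodes gelatinase B, which osteoclasts also make, and rose by 3.43 (SE 0.14). With 1 probe set per gene in place of the mean, 2 of the list were lower and the median was -0.24, and Adam8 (-0.24) was no longer called. After quantile normalization Mmp9 alone of the 5 stayed called. Acp5 and Ctsk, which mark osteoclasts, rose by 4.34 (SE 0.10) and 3.81 (SE 0.15), and their part in the rise of Mmp9 was not tested.

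Cytosolic and surface genes of neutrophils were lower as well. All 10 listed cytosolic genes were measured, S100a8 and S100a9 among them, and 9 were lower, with a median log2 difference of -1.63. Padi4, the histone-citrullinating enzyme of neutrophil extracellular traps, differed by -2.35 (SE 0.20), and Coro1a, an actin regulator of leukocytes, by -1.92 (SE 0.16). Of 13 listed surface receptors 9 were measured and 7 were lower, with a median of -1.80. Il1r2, the decoy receptor for interleukin 1, differed by -3.44 (SE 0.14). Cxcr2, the receptor for CXCL1 and related chemokines, differed by -2.21 (SE 0.17), C5ar1 for complement C5a by -2.01 (SE 0.11), and Csf3r for G-CSF by -1.99 (SE 0.12). After quantile normalization 6 of the 9 called cytosolic genes and 5 of the 7 called receptors stayed called.

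The machinery that loads and releases granules held 7 genes, all measured, of which 5 were lower and 2 were higher, with a median log2 difference of -1.11. Srgn, the proteoglycan serglycin that retains granule proteins, differed by -1.93 (SE 0.12). Rab27a and Unc13d, which dock and prime granules for release, differed by -1.69 (SE 0.10) and -1.34 (SE 0.09). Cd63, a membrane protein of azurophil granules and of lysosomes in many cells, rose by 1.78 (SE 0.08), and Ctsc, which activates granule serine proteases, rose by 0.95. Of the NADPH oxidase, which makes superoxide in phagocytes, 5 of 6 genes were measured and 4 were lower, with a median of -0.51. Its catalytic subunit Cybb differed by -1.57 (SE 0.13) and its cytosolic subunit Ncf4 by -1.55 (SE 0.10). Of 6 protease inhibitors, all measured, 2 were lower, Serpinb1a, which inhibits neutrophil elastase (-2.36, SE 0.21), and Cst7, a cystatin (-1.58, SE 0.10), and 1 was higher, Serpina1 (0.40, SE 0.14), with a list median of -0.24. The protease inhibitor counts stand beside 28.6% lower and 30.3% higher over all genes. After quantile normalization 2 of 7, 1 of 4 and 1 of 3 calls of the loading, oxidase and inhibitor lists stayed. The call of Serpina1 was also lost, at 0.28 to 0.37, when any of sham pools 1 and 3 or OVX pools 1 and 3 was left out.

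Most receptors of the members' proteins were higher in OVX. Of 10 listed 8 were measured, 6 were higher and 1, Tlr4, was lower (-0.28), with a median log2 difference of 0.99. Slc22a17, a lipocalin 2 receptor, rose by 2.16 (SE 0.09), and Bsg, basigin, a binding partner of S100A9, by 1.28 (SE 0.07). Cd14 and Ly96, which work with TLR4, rose by 1.23 (SE 0.16) and 1.07 (SE 0.10). After quantile normalization 5 of the 7 calls stayed. The sign of Tlr4 turned to 0.06 after quantile normalization, and its call was lost, at -0.28 to -0.21, when any of sham pools 1 and 2, OVX pools 1 and 3, LTBB OVX pool 2 or STBB OVX pool 1 was left out. These genes are also used by many cells other than neutrophils.

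Factors and ligands of neutrophil production showed smaller differences. Of 9 listed myeloid transcription factors 8 were measured, 6 were lower and 1, Cebpd, was higher (0.31), with a median log2 difference of -0.50. Cebpe, the factor of the specific granule stage, differed by -1.06 (SE 0.14), and Myb, a factor of immature progenitors, by -1.69 (SE 0.12). Irf8 and Runx1 differed by -0.61 (SE 0.13) and -0.56 (SE 0.09). Cebpb, another of the 6, lost its call in 11 of the 12 fits that left out 1 pool, with -0.34 to -0.14 in them. None of the 7 calls stayed after quantile normalization. Of 10 listed ligands 9 were measured, 3 were lower and 2 were higher, with a median of -0.08. Over all genes 28.6% were lower and 30.3% were higher, so the ligand counts lay near the shares of all genes. Cxcl12, which holds neutrophils in marrow, rose by 1.35 (SE 0.17), and Cxcl1, a chemokine that draws them, by 0.64 (SE 0.10). Il1b differed by -0.97 (SE 0.14), and Cxcl6 differed by -0.43 (SE 0.13), a sign that quantile normalization turned to 0.16. Of the 5 ligand calls 1, a higher one, stayed after quantile normalization. The third lower ligand was Csf3, which encodes G-CSF (-0.22). Tlr4, Ctsc, Cebpb, Cebpd and Csf3 were named after their values had been seen.

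**Figure D2:**
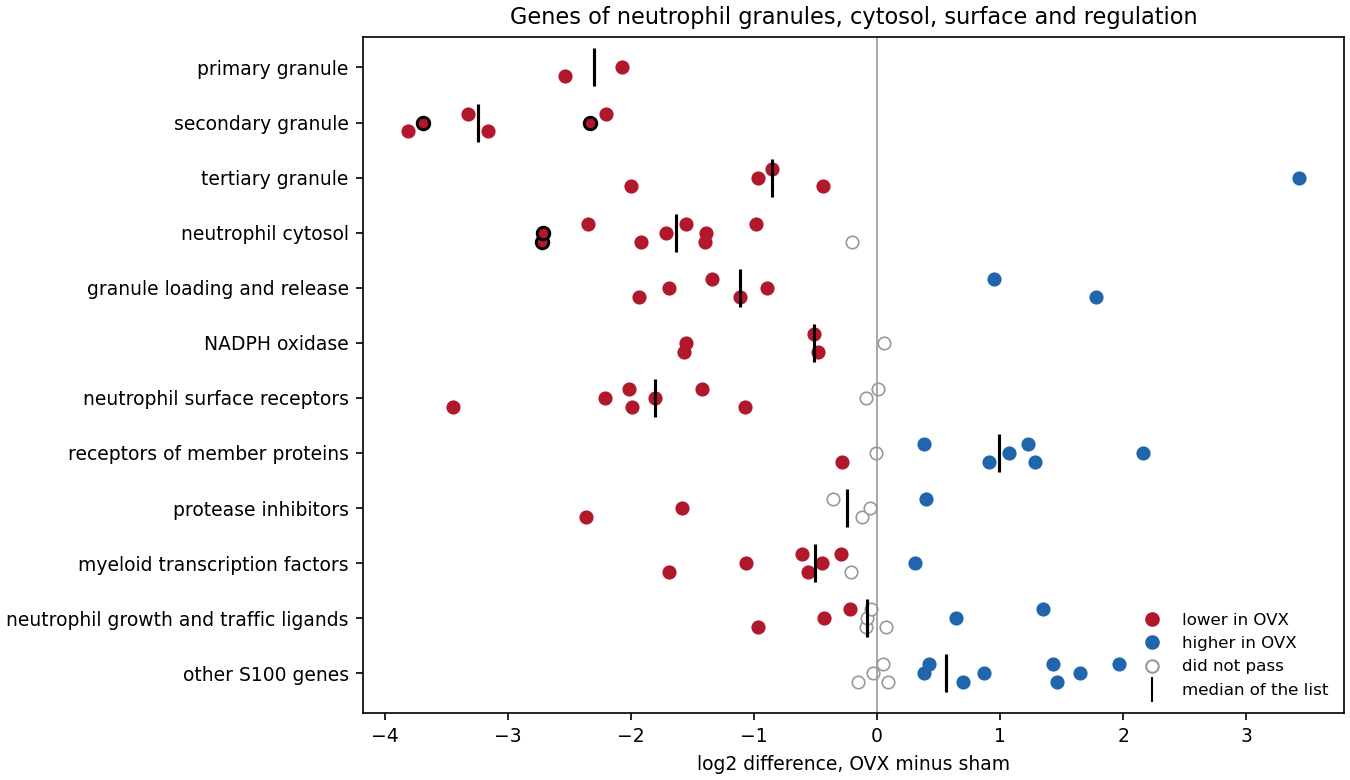
Log2 difference between OVX and sham (horizontal axis) for each measured gene of 12 lists (rows); filled points passed limma at an adjusted p of 0.05, the 4 members are ringed in black, and black ticks are list medians. List medians run from -3.24 for secondary granule genes to 0.99 for the receptors of the members' proteins.

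No other measured S100 gene was called lower. Of 14 listed 12 were measured, 8 were higher in OVX and none was lower, with a median log2 difference of 0.56. S100b rose by 1.97 (SE 0.17), S100a3 by 1.65 (SE 0.11), S100a13 by 1.46 (SE 0.10) and S100a16 by 1.43 (SE 0.08). After quantile normalization 3 of the 8 stayed called, S100a13 and S100a16 among them, and S100a3 did not (limma adjusted p = 0.0677). S100a8 and S100a9 are direct neighbours on chromosome 2 of GRCr8, with 0 protein-coding genes between them. On the side before S100a8 in the gene order lie S100a1, S100a13, S100a14, S100a16, S100a3, S100a4, S100a5, S100a6 and S100a7a, again with 0 protein-coding genes between neighbours. S100a4 and S100a5 differed by 0.42 (SE 0.09) and 0.38 (SE 0.12), and both passed, but S100a5 did not (0.26) without sham pool 1 or without OVX pool 3. S100a6, the nearest measured gene on that side, differed by -0.15 (SE 0.12; limma adjusted p = 0.312), and S100a7l2, the nearest on the other side, by -0.08 (SE 0.12; limma adjusted p = 0.608). S100a8 and S100a9 were thus the 2 called lower among the measured S100 genes of the cluster; the genes placed by this order were named after their values had been seen.

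**Figure D3:**
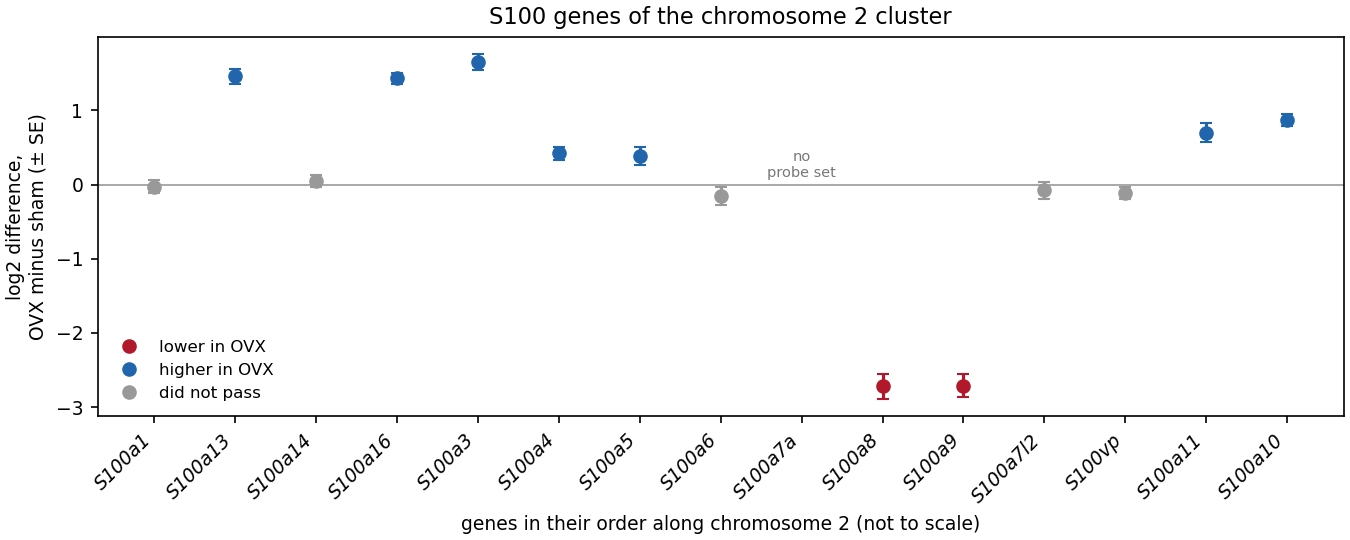
Log2 difference between OVX and sham (vertical axis, ± SE) of S100 genes in their order along chromosome 2 (horizontal axis, not to scale); colours give the limma call. S100a8 at -2.72 and S100a9 at -2.71 lie below the axis between S100a6 at -0.15 and S100a7l2 at -0.08.

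The BB diets did not bring a detectable difference among ovariectomized rats in any of the 4 members. In LTBB OVX against OVX, STBB OVX against OVX and STBB OVX against LTBB OVX, limma called 0 of the 4 members and 0 of all 14217 genes (0%). At an unadjusted p under 0.05, 2.31%, 2.89% and 3.4% of all genes passed in these comparisons, and 0 members. A limma fit of only the arrays of ovariectomized rats also called 0 members and 0 genes in each of them. The log2 difference between LTBB OVX and OVX was 0.14 (95% interval -0.23 to 0.52) for S100a8 and 0.06 (-0.26 to 0.38) for S100a9. It was -0.01 (-0.31 to 0.29) for Camp and -0.12 (-0.52 to 0.27) for Lcn2. These intervals leave room for differences in both directions that are small beside the difference between sham and OVX. Their spread was estimated over all 12 arrays, sham included, and for Lcn2 the sham pools varied most (SD 0.43).

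Between STBB OVX and OVX the log2 difference was 0.16 (95% interval -0.22 to 0.53) for S100a8 and 0.21 (-0.11 to 0.53) for S100a9. It was 0.12 (-0.18 to 0.42) for Camp and -0.03 (-0.43 to 0.36) for Lcn2. Between STBB OVX and LTBB OVX it was 0.02 (-0.36 to 0.39) for S100a8, 0.15 (-0.17 to 0.47) for S100a9, 0.13 (-0.17 to 0.43) for Camp and 0.09 (-0.31 to 0.48) for Lcn2. The largest of these 12 differences was that of S100a9 between STBB OVX and OVX.

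Within each group of ovariectomized rats some pools were low in several members at once. S100a8, S100a9 and Camp all lay under -0.2 in 5 of the 9 pools, which were OVX pools 1 and 3, LTBB OVX pools 2 and 3, and STBB OVX pool 3. The highest of their values was -0.24. In the other 4 pools the lowest value of these genes was -0.01. Np4 was -0.37 and -0.27 in the low OVX pools, -0.46 and -0.51 in the low LTBB OVX pools and -0.15 in the low STBB OVX pool. Its value was 0.22 in OVX pool 2, 0.02 in LTBB OVX pool 1, and 0.01 and -0.01 in STBB OVX pools 1 and 2. Lcn2 was -0.07, -0.12, -0.12, -0.38 and -0.15 in the low pools and reached -0.13 in STBB OVX pool 1, so it did not separate them. The limit of -0.2 was set after the values had been seen, and no test was made. The sham pools were highest for these genes, so centring on the median puts some of the 9 pools near 0 and others below it. Megakaryocyte and B cell markers shared part of the pattern in LTBB OVX. LTBB OVX pools 1 to 3 had means of 0.14, -0.32 and -0.22 for megakaryocyte markers and 0.17, -0.21 and -0.20 for B cell markers. In OVX pool 3 these lists were not low (0.02 and 0.15). In STBB OVX pool 3 they were -0.06 and -0.05, and STBB OVX pool 2 was lower (-0.07 and -0.16). Erythroid and eosinophil markers were also highest in LTBB OVX pool 1 (0.14 and 0.13) among the LTBB OVX pools. Among the STBB OVX pools, however, both were highest in pool 3 (-0.14 and -0.09). In OVX, erythroid markers were highest in pool 2 (0.07) and eosinophil markers in pool 3 (0.01).

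Against sham, both BB groups gave values close to those of OVX, and all 3 comparisons share the sham arrays. All 4 members were lower in LTBB OVX, where 29.1% of all genes were, with log2 differences of -3.70 for Camp, -2.57 for S100a8, -2.65 for S100a9 and -2.45 for Lcn2. All 4 were lower in STBB OVX, where 29% of all genes were, with -3.57, -2.56, -2.50 and -2.37 in the same order. After quantile normalization S100a8 lost its call in LTBB OVX (-1.13, limma adjusted p = 0.0798), where 7.05% of all genes were then lower, and S100a8 (-1.23, 0.0608) and S100a9 (-0.98, 0.0725) lost theirs in STBB OVX, where 7.01% were.

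**Figure D4:**
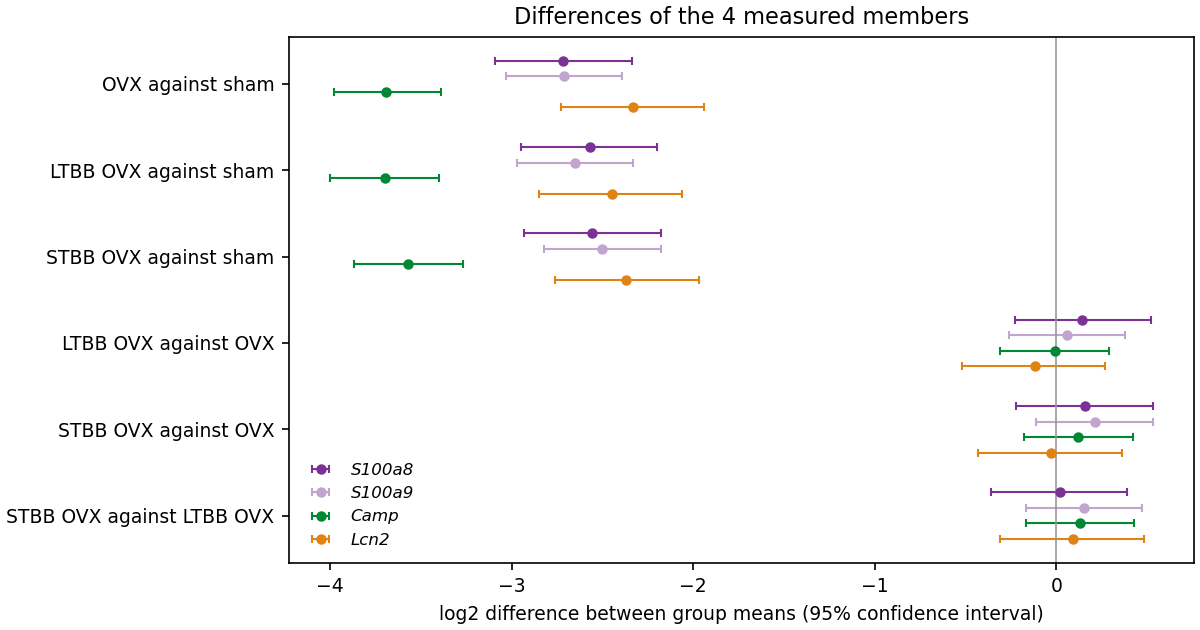
Log2 difference with its 95% confidence interval (horizontal axis) of the 4 measured members in the 6 comparisons of groups (vertical axis), from limma over all arrays. The 3 comparisons with sham run from -3.70 to -2.33, and all intervals among ovariectomized rats include 0.

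Markers of other cells also differed between sham and OVX, and their part in the fall of the members was not tested. Since values are centred, it cannot be read which markers are near absence. Of the eosinophil markers all 4 measured of 5 were lower in OVX (median log2 difference -2.57), with list means of 1.72 to 2.81 in sham and -0.11 to 0.01 in OVX. Of the erythroid markers 7 of 8 measured were lower (median -2.73), with list means of 2.12 to 2.56 and -0.23 to 0.07. Of the megakaryocyte markers 5 of 6 measured were lower (median -1.99), with list means of 1.29 to 1.79 and -0.21 to 0.02. All 10 proliferation genes were lower (median -1.29), with list means of 1.12 to 1.58 and -0.14 to 0.07. After quantile normalization 6 of the 7 erythroid and 5 of the 10 proliferation calls stayed, and 0 of the 4 eosinophil and 0 of the 5 megakaryocyte calls.

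Most measured macrophage markers and all measured bone markers went the other way. Of 9 measured monocyte and macrophage markers 6 were higher and 1 was lower (median 0.64), with list means of -1.05 to -0.30 in sham and 0.00 to 0.10 in OVX; Csf1r, the receptor for M-CSF, rose by 2.82 (SE 0.13), and Cd163, a haemoglobin scavenger receptor, differed by -2.40 (SE 0.11). Leaving out 1 pool moved the number of higher macrophage markers between 5 and 8, and after quantile normalization 2 were higher and 1 was lower (median 0.33). All 9 measured osteoblast and osteocyte markers were higher (median 2.67), with list means of -2.57 to -2.38 in sham and -0.03 to 0.09 in OVX, and all 4 measured osteoclast markers were higher (median 3.17), of which 3 stayed called after quantile normalization. The part of osteoclasts in the rise of Csf1r was not tested. All 10 skeletal muscle markers were lower (median -6.21), with list means of 2.81 to 3.86 in sham and -3.50 to -1.43 in OVX. Muscle list means were also -3.58 to 0.14 in LTBB OVX, and in STBB OVX 0.05 to 0.53, groups whose member means, -0.35 to 0.08 and -0.27 to 0.03, overlapped those of OVX, -0.32 to 0.05. All these muscle means lay below those of sham, and the part of muscle in the difference from sham was not tested.

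**Figure D5:**
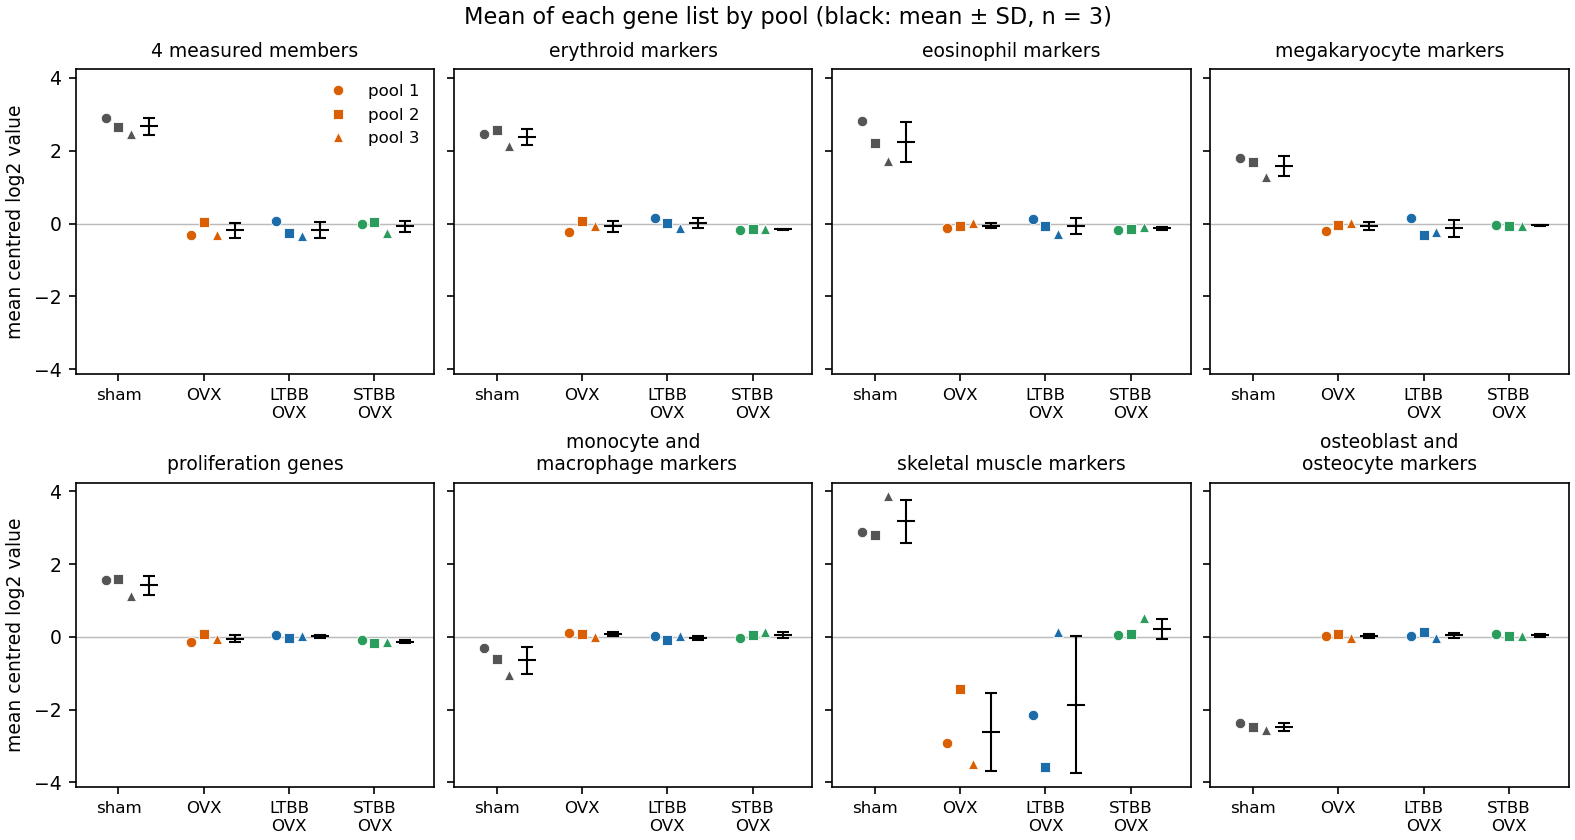
Mean centred log2 value (vertical axis) of the 4 members and of 7 marker lists in the 3 pools of each group (horizontal axis); symbols are pools and black bars are the mean ± SD. Member means are 2.46 to 2.91 in sham and -0.35 to 0.08 in all other pools. Muscle marker means are 2.81 to 3.86 in sham and -3.58 to 0.53 in the ovariectomized groups.

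The genes whose pattern over the 12 arrays lay nearest to the mean profile of the measured members were found by the root mean square difference of centred log2 values. They were Napsa (0.149), Gca (0.153), Chit1 (0.164), Np4 (0.174) and Kel (0.177). Gca encodes grancalcin, a calcium-binding protein of neutrophils, Chit1 a chitinase of phagocytes, Kel the Kell blood group protein of red cells, and Napsa an aspartic protease. The members themselves differed from their mean by 0.13 (S100a9), 0.157 (S100a8), 0.232 (Lcn2) and 0.41 (Camp), so that Camp and Lcn2 lay farther from it than each of these 5 genes. The likeness is mostly that of the step between sham and all other arrays, and it carries no test.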

How the data were processed

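Affymetrix rat expression arrays of 12 RNA pools were used. The authors deposited log2 values made by RMA and normalized per array and per gene, so that each probe set has a median of 0; for GCOS and RMA, no version is given in the sources used here. No scanner intensities were used, so background and array scaling could not be redone. Of 31042 probe sets without controls, 20826 carry 1 gene symbol, 436 several and 9780 none in the platform annotation; probe sets of 1 symbol were averaged per gene. Symbols were checked by gene ID in RefSeq's table of GRCr8 (20758 found). limma 3.58.1 (R 4.3.3) fitted 4 group means over all 12 arrays (lmFit, contrasts.fit, eBayes) with Benjamini-Hochberg adjustment, tested on simulated data. Array number, not depth, limits precision. Named genes were the members, up to 4 called genes of largest difference per list, and the 5 nearest profiles. Members and lists were chosen with earlier results of these data known. Alternatives were quantile normalization, median centring, 1 probe set per gene, only the compared groups, only ovariectomized arrays, array weights, robust fitting, a filter on variance, a fold of at least 1.5, a pool-number block, and leaving out each pool. Residual correlations showed no pairing by pool number (-0.376 to 0.232 for same-numbered pools, -0.234 to 0.381 for others). They cannot show whether same-numbered pools shared a batch.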

Additional observations from a re-analysis of the deposited data

How the results depend on the processing

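All 4 measured members kept their direction against sham under all alternatives, and their calls in all except quantile normalization, under which 2 of 4 stayed called in STBB OVX against sham. Genes called in OVX, LTBB OVX and STBB OVX against sham then numbered 2006, 2282 and 2158, and at a fold of at least 1.5 they numbered 2874, 2876 and 2881, against 8367, 8290 and 8283. Quantile normalization called 2 genes in STBB OVX against OVX and 9 in STBB OVX against LTBB OVX, and fitting the compared groups alone called 40 in STBB OVX against OVX; none was a member. Leaving out 1 pool gave 0 to 8 genes in both of these comparisons, with 8 called without LTBB OVX pool 3. Signs turned for differences that were not called: Camp, LTBB OVX against OVX, 0.03, and Lcn2, STBB OVX against OVX, 0.00, with array weights; S100a8, STBB OVX against LTBB OVX, -0.10 after quantile normalization and -0.02 with array weights. Of 170 genes on the lists, quantile normalization turned the sign of 10 in OVX against sham, 2 of them called before, Cxcl6 (0.16) and Tlr4 (0.06). With 1 pool left out the log2 differences ranged from 0.00 to 0.31 (S100a8), -0.09 to 0.20 (S100a9) and -0.12 to 0.09 (Camp) for LTBB OVX against OVX, from -0.13 to 0.05 (Lcn2) for STBB OVX against OVX, and from -0.08 to 0.16 (S100a8) and -0.03 to 0.20 (Lcn2) for STBB OVX against LTBB OVX. The cause was not tested. With the pool number as a replicate block, 4 members were called in each comparison with sham and 0 in the others. In OVX against sham 8196 genes were then called. Residual correlations showed no pairing by these numbers. The comparison of Mpo and Prtn3 with the later genes was not run. The few arrays limit precision.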

Other observations

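Markers of other marrow cells that the text has not described showed mixed differences between OVX and sham. Over all genes 28.6% were lower and 30.3% were higher. Of 6 mast cell and basophil markers 3 were higher and 3 were lower: Tpsab1 and Cpa3, mast cell proteases, rose by 2.25 (SE 0.29) and 2.13 (SE 0.26) on the log2 scale, and Hdc, which makes histamine, differed by -1.29 (SE 0.15). The third higher gene, Fcer1a, named after its values had been seen, lost its call in 8 of the 12 fits with 1 pool left out, with 0.39 without sham pool 3, and 2 were higher with array weights, robust fitting or the replicate block. Of 10 T and NK cell markers 4 were lower and 1 was higher (median -0.20), and Nkg7, a granule membrane protein of cytotoxic lymphocytes, differed by -2.47 (SE 0.16). Of 4 measured B cell markers 2 were lower (median -0.46), and of 3 measured stem and progenitor markers 2 were lower and 1, Kit, was higher (0.28; median -0.75), a call lost without OVX pool 3 (0.21) or without sham pool 1 (0.22). After quantile normalization 1 of the 6 mast cell and basophil calls stayed, none of the T, NK and B cell calls, and 1 of the 3 stem and progenitor calls.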
